A study of Mus musculus with 9 samples.

Results

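Refeeding after a diet short of methionine, tryptophan and niacin was examined by setting 1 intestinal library, 3KR, against another, 3K. The mice of 3KR had the triple-deficient diet to day 28 and normal feed from then to day 33, and the mice of 3K had the triple-deficient diet to day 28, when their tissue was taken. Mice of both groups drank dextran sulfate sodium (DSS), which damages the lining of the gut, freely from day 18. These are 2 of the 9 libraries of a mouse series on diet in a model of inflammatory bowel disease. The day change without a change of diet was read from RR (normal diet, day 33) minus R (normal diet, day 28), whose mice had DSS from day 18 as well. The remaining libraries were 2KR and 2K (tryptophan- and niacin-deficient diet, with and without the return to normal feed, days 33 and 28), 1KR and 1K (methionine-deficient diet in the same scheme) and C (normal diet, no DSS in the label, day 34). The sources used here give neither the strain, sex and age of the mice nor the gut segment, nor do they say if tissue of several animals was pooled. There was 1 library a condition, so no difference below has a replicate check and none carries a p-value. 3KR and 3K differ in diet and in day at once, and these cannot be told apart within the pair.

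Methionine and tryptophan are amino acids that mice must take from food. Methionine feeds the methyl donor S-adenosylmethionine, and tryptophan and niacin both feed the synthesis of NAD, while tryptophan is also the source of serotonin and of kynurenine. In cells short of an amino acid the kinase GCN2 raises the translation of the transcription factor ATF4, which induces genes of amino acid synthesis and import. In DSS colitis the epithelial layer is lost and rebuilt from crypt stem cells, and neutrophils, short-lived phagocytes made in the bone marrow, enter the tissue.

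Expression was measured as FPKM, a fragment count divided by transcript length in kilobases and by library size, for 55468 genes. A gene was kept for a pair where 1 of its libraries or both reached 1 FPKM, and a difference is that of log2(FPKM + 0.5), which understates the change of low genes. The floor was applied to each pair, so the medians of a list in 2 pairs can rest on different members. At the edge of that floor, Brdt was kept with 0.327 FPKM in 3KR and 1 FPKM in 3K, and Kcnj10 was left out with 0.994 FPKM in 3KR and 0.999 FPKM in 3K. In 3KR against 3K, 18879 genes were kept, of which 2520 (13.3%) were at least 2-fold higher in 3KR and 2218 (11.7%) at least 2-fold lower. Together 25.1% of genes were 2-fold apart, against 10.7% of 18003 genes in RR against R, where 5.42% were higher and 5.29% lower. The median difference over all genes was 0.01 in 3KR minus 3K and -0.05 in RR minus R.

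Both libraries stood apart from the rest of the series. In 3K, 38 genes of the exocrine pancreas held 10.6% of the summed FPKM, against 0.354% in 3KR, and 2K was the other high library with 7.97%. Zg16, which is also on the list of goblet cell genes, made up 2506 FPKM of their 3444 FPKM in 3KR. In 3KR, small RNA genes held 49.7% of the summed FPKM, against 15.4% in 3K and 14.1% to 25.6% in the other 7 libraries, and protein-coding genes held 44.9%, against 78.9% in 3K. The estimated depth was 13.9 M fragments in 3KR and 25.5 M in 3K, and between 21.5 M and 30 M in the others. The counts were 2517 higher and 2151 lower without 108 genes of pancreas, stomach, liver and fat, and 2222 higher and 2012 lower without small RNA and mitochondrial genes. Scaling to the sum of protein-coding FPKM brought the median of all genes to 0.26 and gave 3576 higher and 1619 lower, so that 68.8% of the genes past 2-fold were higher in 3KR, against 53.2% as deposited. Markers of intestinal epithelium were present in both. Vil1, which bundles actin in microvilli, had 265.5 FPKM in 3KR and 229.8 FPKM in 3K, and Cdx2, an intestinal transcription factor, had 49.2 FPKM in 3KR and 15.7 FPKM in 3K.

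**Figure D1:**
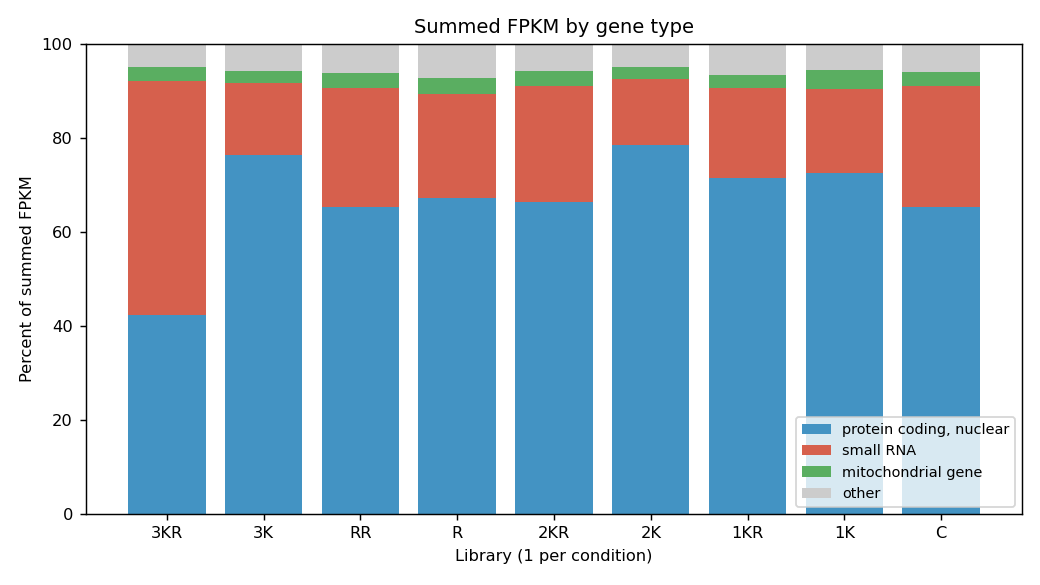
Share of the summed FPKM (percent, vertical axis) held by nuclear protein-coding, small RNA, mitochondrial and other genes in each of the 9 libraries (horizontal axis). The small RNA share is 49.7% in 3KR, 15.4% in 3K and between 14.1% and 25.6% in the other libraries.

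Promoters of 3 of the gene groups whose members moved together are shown first, as 300 bases from 250 before to 50 after each gene's start in the RefSeq table for GRCm38.p6. Those of the digestive enzyme genes Prss2 (an anionic trypsin, chr6:41521526-41521825, plus strand) and Cela2a (an elastase, chr4:141825956-141826255, minus strand) carry in capitals, on either strand, CACCTG and TTTCCC, the letters of the 2 parts of the site bound by the pancreatic PTF1 complex.
Prss2: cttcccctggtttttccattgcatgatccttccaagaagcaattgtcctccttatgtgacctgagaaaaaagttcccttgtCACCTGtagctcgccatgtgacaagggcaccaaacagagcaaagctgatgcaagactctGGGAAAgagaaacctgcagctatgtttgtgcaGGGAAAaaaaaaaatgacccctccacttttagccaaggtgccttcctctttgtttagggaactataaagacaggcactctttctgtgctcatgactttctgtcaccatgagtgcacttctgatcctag
Cela2a: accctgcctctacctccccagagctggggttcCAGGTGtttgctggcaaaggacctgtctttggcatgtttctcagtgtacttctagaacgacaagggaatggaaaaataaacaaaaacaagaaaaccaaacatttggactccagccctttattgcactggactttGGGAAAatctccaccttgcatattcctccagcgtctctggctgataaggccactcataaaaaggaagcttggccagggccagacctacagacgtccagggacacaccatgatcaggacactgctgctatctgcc
CACCTG was found in 18 of 29 promoters of the acinar list (62.1%) and in 19.3% of 16522 protein-coding promoters, TTTCCC in 11 of 29 (37.9%) and in 25.5%, and both in 8 of 29 (27.6%) and in 4.94%. The neutrophil list, which differed in the other direction, held CACCTG in 7 of 19 promoters (36.8%) and both in 4 of 19 (21.1%).

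The stefin A genes, small inhibitors of cysteine proteases that lie in a cluster on chromosome 16 and are used as neutrophil markers, are shown because their levels set 3KR apart from the libraries of the normal diet. Capitals mark GAGGAA on either strand, the core letters bound by the myeloid factor PU.1, in the promoters of Stfa2 (chr16:36408314-36408613, minus strand), Stfa2l1 (chr16:36156561-36156860, plus strand) and Stfa3 (chr16:36455343-36455642, minus strand).
Stfa2: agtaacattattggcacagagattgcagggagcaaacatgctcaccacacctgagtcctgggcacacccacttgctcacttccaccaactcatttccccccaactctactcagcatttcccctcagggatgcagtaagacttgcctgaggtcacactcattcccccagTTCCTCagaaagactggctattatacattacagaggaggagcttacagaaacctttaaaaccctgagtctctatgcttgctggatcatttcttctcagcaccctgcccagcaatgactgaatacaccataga
Stfa2l1: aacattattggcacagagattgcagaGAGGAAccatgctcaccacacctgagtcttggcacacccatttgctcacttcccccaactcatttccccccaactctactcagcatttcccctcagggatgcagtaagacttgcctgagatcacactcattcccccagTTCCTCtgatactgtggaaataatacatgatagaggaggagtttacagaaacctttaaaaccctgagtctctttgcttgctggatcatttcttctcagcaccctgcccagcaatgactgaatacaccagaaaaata
Stfa3: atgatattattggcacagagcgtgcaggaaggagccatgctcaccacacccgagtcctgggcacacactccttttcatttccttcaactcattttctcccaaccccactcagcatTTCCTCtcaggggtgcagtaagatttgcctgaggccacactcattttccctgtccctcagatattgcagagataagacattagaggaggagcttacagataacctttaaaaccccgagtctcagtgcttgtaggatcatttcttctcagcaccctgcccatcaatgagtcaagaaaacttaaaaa
GAGGAA was found in 14 of 19 promoters of the neutrophil list (73.7%) and in 27.2% of the protein-coding promoters. The Stfa2 and Stfa2l1 promoters were 90.5% identical in alignment, and each was 81.0% identical to that of Stfa3. Identity of their transcripts was not measured.

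The cholesterol genes Hmgcs1 (chr13:119690101-119690400, plus strand), Idi1 (chr13:8885356-8885655, plus strand) and Insig1 (chr5:28071162-28071461, plus strand) are shown with CCAAT in capitals on either strand, the box bound by NF-Y, which acts beside the sterol factor SREBP at such genes.
Hmgcs1: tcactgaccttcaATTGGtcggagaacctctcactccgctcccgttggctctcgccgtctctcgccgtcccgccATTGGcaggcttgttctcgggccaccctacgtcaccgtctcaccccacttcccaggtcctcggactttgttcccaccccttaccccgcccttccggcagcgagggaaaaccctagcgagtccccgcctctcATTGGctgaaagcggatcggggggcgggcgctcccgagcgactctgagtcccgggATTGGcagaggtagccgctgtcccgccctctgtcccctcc
Idi1: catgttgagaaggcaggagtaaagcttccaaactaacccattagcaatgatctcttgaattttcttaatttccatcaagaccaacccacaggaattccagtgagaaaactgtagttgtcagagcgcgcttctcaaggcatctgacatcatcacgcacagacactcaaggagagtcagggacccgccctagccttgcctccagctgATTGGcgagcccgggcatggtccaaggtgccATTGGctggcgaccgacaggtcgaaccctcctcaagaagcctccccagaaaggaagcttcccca
Insig1: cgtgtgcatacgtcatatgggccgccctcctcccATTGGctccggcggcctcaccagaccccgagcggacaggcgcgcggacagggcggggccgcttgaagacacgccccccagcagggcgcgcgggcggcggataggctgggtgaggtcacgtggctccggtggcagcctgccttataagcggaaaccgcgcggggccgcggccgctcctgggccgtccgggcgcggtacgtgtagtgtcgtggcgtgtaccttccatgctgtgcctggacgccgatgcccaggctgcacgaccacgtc
CCAAT was found in 15 of the 16 cholesterol promoters in the table (93.8%) and in 38.7% of the protein-coding promoters. TTGCNNAA, letters of the C/EBP site, was searched as well and found in 8 of 19 neutrophil promoters (42.1%) and in 1656 of 16522 protein-coding promoters. Both strands were searched for each motif, no motif contains another, and matches may share a few bases. A match describes the letters in the window and is not a tested site.

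Genes of the exocrine pancreas were the lowest in 3KR relative to 3K. Of 36 measured members of the acinar list, 35 were at least 2-fold lower and 1, Zg16, also a goblet list gene, was higher. The median difference was -7.35, against -0.11 over the 14 members measured in RR minus R. Members such as Cpb1, Cela3b and Amy2b reached 1 FPKM in 3K alone of the pair, so the floor fixed their direction. Ctrb1, which encodes the digestive protease chymotrypsinogen B (GRCm38 chromosome 8, 111686519 to 111691010, minus strand), had 9.83 FPKM in 3KR and 32274 FPKM in 3K, against 0.237 FPKM in RR and 1.36 FPKM in R. Prss2 had 1.46 FPKM in 3KR and 3867 FPKM in 3K, and Cela2a had 1.49 FPKM in 3KR and 2691 FPKM in 3K. Both were below 0.2 FPKM in RR and R. Reg2, a secreted lectin of the pancreas (chromosome 6, 78395623 to 78408106), had 0.386 FPKM in 3KR and 5394 FPKM in 3K, a difference of -12.57, with 0.065 FPKM in RR and 0.127 FPKM in R. Amy2b, Try10, Prss3, 1810009J06Rik and Ptf1a were listed at 0 in 3KR. Bhlha15, a transcription factor of secretory cells, differed less, with 2.17 FPKM in 3KR and 7.57 FPKM in 3K. In bulk tissue fewer cells of a type and less RNA per cell cannot be told apart.

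Hormone genes of the pancreatic islet followed the same libraries. Ins2, which encodes insulin, was listed at 0 in 3KR and had 321.6 FPKM in 3K, and Ins1 was listed at 0 in 3KR and had 54.2 FPKM in 3K. Iapp, the islet amyloid peptide, had 0.802 FPKM in 3KR and 25.6 FPKM in 3K, and 7 of 10 measured islet genes were at least 2-fold lower in 3KR. Tff2, a mucus peptide of stomach and duodenal glands, had 0.167 FPKM in 3KR and 57.1 FPKM in 3K. 3K thus held RNA of both pancreatic compartments, as did 2K with 24692 FPKM of Ctrb1 and 341.8 FPKM of Ins2. The share of the acinar list was 0.354% in 3KR and at most 0.738% in the other 6 libraries. In 3KR and those 6 libraries Zg16 made up most of it, as with 3354 FPKM of 3984.5 FPKM in RR. The part of pancreatic RNA in the other differences was not tested.

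**Figure D2:**
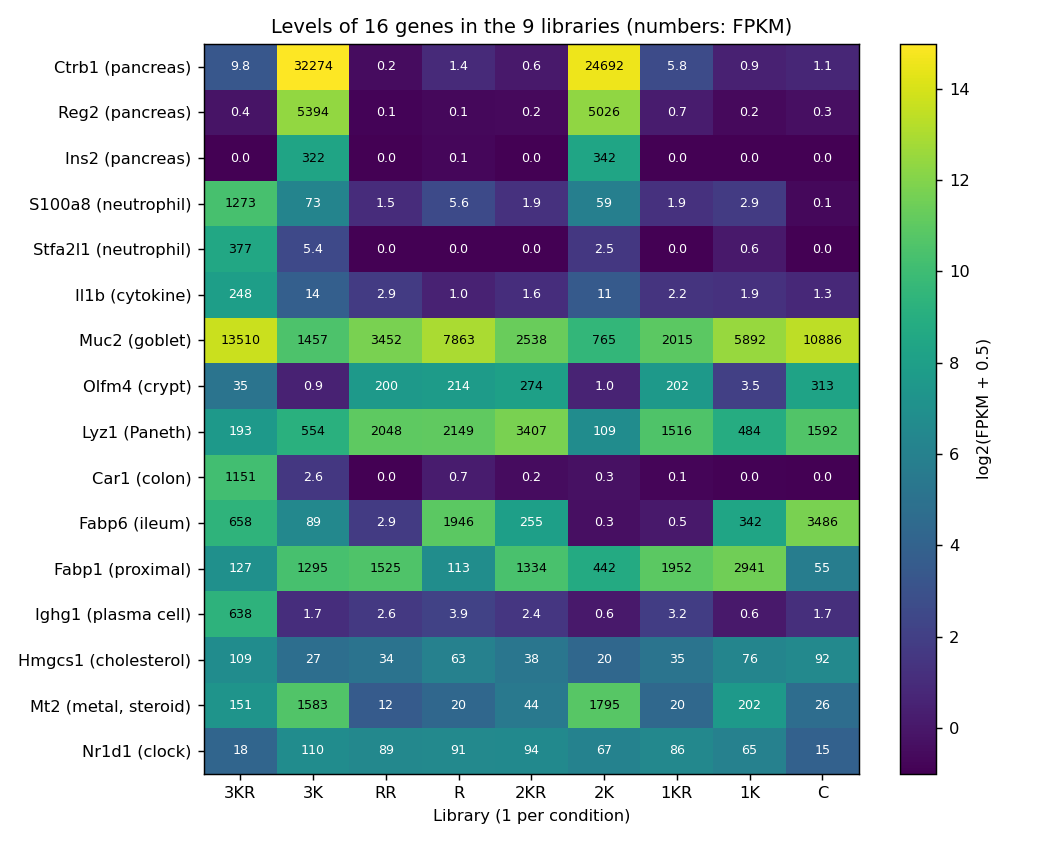
Levels of 16 genes (rows, with the list or role in brackets) in the 9 libraries (columns); the number in a cell is FPKM and the colour its log2(FPKM + 0.5). The pancreatic genes are high in 3K and 2K, while S100a8, Stfa2l1, Il1b, Car1 and Ighg1 are highest in 3KR.

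Neutrophil genes were the list with the highest median in 3KR relative to 3K. Of 18 measured members, 15 passed 2-fold upward and 1 downward, with a median of 2.73. In RR minus R the median was -1.01 over the 10 members measured there, so the 2 medians rest on different members. S100a8, which with S100a9 forms the antimicrobial protein calprotectin (chromosome 3, 90668978 to 90670035), had 1273 FPKM in 3KR and 73.4 FPKM in 3K, against 1.54 FPKM in RR and 5.57 FPKM in R. S100a9 had 750.6 FPKM in 3KR and 48.0 FPKM in 3K, against 0.724 FPKM in RR and 3.47 FPKM in R. Both pairs therefore moved in opposite directions, and 3K itself lay well above the normal-diet libraries. Stfa2 had 329.0 FPKM in 3KR and 4.58 FPKM in 3K, and it was listed at 0 in RR with 0.118 FPKM in R. Stfa2l1 had 376.8 FPKM in 3KR and 5.36 FPKM in 3K, and was listed at 0 in RR, R and C. Of related genes in no list, chosen after their values were seen, Stfa3 had 88.8 FPKM in 3KR and 4.07 FPKM in 3K, and Cstdc5 had 143.0 FPKM in 3KR and 7.39 FPKM in 3K.

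Receptors of mature neutrophils moved with the calprotectin genes. Csf3r, the receptor for the growth factor G-CSF, had 36.8 FPKM in 3KR and 2.01 FPKM in 3K, and Cxcr2, the receptor for CXCL chemokines, had 15.2 FPKM in 3KR and 1.26 FPKM in 3K. Trem1, which amplifies inflammatory signals, had 34.5 FPKM in 3KR and 1.94 FPKM in 3K. The granule gene Ngp had 89.7 FPKM in 3KR and 14.6 FPKM in 3K, and Mmp8, the neutrophil collagenase, had 32.6 FPKM in 3KR and 4.37 FPKM in 3K. The summed level of the 19 list genes other than Lcn2 was 3436 FPKM in 3KR and 271.6 FPKM in 3K, against 19.3 FPKM in RR and 32.8 FPKM in R, and 2K had 179.1 FPKM. Lcn2, an iron-binding protein made by neutrophils and by inflamed epithelium, was the member that was lower, with 208.0 FPKM in 3KR and 643.3 FPKM in 3K. In 2K Lcn2 had 3026.2 FPKM. With Lcn2 included, the 20 list genes summed to 3643.8 FPKM in 3KR, 914.9 FPKM in 3K and 3205.3 FPKM in 2K. The distance of 3KR from 3K and from 2K was thus smaller with Lcn2 than without it, and most of the 2K sum was Lcn2. The list genes Ly6g and Ltf were higher by less than 2-fold. Ly6g had 78.7 FPKM in 3KR and 50.2 FPKM in 3K, and Ltf had 18.2 FPKM in 3KR and 9.03 FPKM in 3K.

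Inflammatory cytokines were higher for the most part. Of 20 measured members, 10 were at least 2-fold higher in 3KR and 3 lower, with a median of 0.99. In RR minus R the median was 0.23 over the 12 members measured there. Il1b, which encodes interleukin 1 beta (chromosome 2, 129364570 to 129371139), had 248.2 FPKM in 3KR and 13.7 FPKM in 3K, against 2.88 FPKM in RR and 0.97 FPKM in R. Cxcl2, a neutrophil attractant, had 303.4 FPKM in 3KR and 31.1 FPKM in 3K, and Osm, a cytokine of the interleukin 6 family, had 27.9 FPKM in 3KR and 1.22 FPKM in 3K. Tnf had 10.2 FPKM in 3KR and 0.905 FPKM in 3K. These 4 genes were at most 2.88 FPKM in RR and R. In the other direction, Socs3, a feedback inhibitor of cytokine receptors, had 22.02 FPKM in 3KR and 149.4 FPKM in 3K, and the epithelial cytokine Il18 had 18.8 FPKM in 3KR and 48.9 FPKM in 3K.

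Macrophage genes did not move as a block, with 5 of 22 at least 2-fold higher and 3 lower. Cd14, a co-receptor for bacterial lipopolysaccharide, had 115.0 FPKM in 3KR and 25.8 FPKM in 3K, and the monocyte genes Ly6c2 and Ccr2 were also higher, with 17.5 and 3.15 FPKM in 3KR and 2.32 and 0.34 FPKM in 3K. Gpnmb, a glycoprotein of lipid-laden macrophages, had 3.28 FPKM in 3KR and 16.4 FPKM in 3K. Acod1, which makes itaconate in activated myeloid cells, had 57.3 FPKM in 3KR and 1.23 FPKM in 3K.

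Antibody genes were higher in 3KR. Of 167 immunoglobulin segments, 122 passed 2-fold upward and 7 downward, with a median of 1.91, against -0.15 in RR minus R. Ighg1, the constant region of IgG1 (chromosome 12, 113325240 to 113330523), had 638.1 FPKM in 3KR and 1.68 FPKM in 3K, against 2.61 FPKM in RR and 3.91 FPKM in R. Igha, the constant region of the gut's main antibody IgA, had 399.9 FPKM in 3KR and 118.5 FPKM in 3K, below the 1110 FPKM of RR and the 882.1 FPKM of R. Thus IgG1 stood above every other library and IgA did not. Igkc, the kappa light chain, had 5053 FPKM in 3KR and 466.1 FPKM in 3K, and Jchain, which joins IgA dimers, had 135.1 FPKM in 3KR and 26.4 FPKM in 3K. Of the plasma cell list 9 of 15 were higher, and Xbp1, Prdm1 and Derl3, which epithelial or acinar cells use as well, were lower. B cell genes were at least 2-fold higher in 7 of 18, among them Ms4a1 (CD20), with 5.49 FPKM in 3KR and 1.34 FPKM in 3K.

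**Figure D3:**
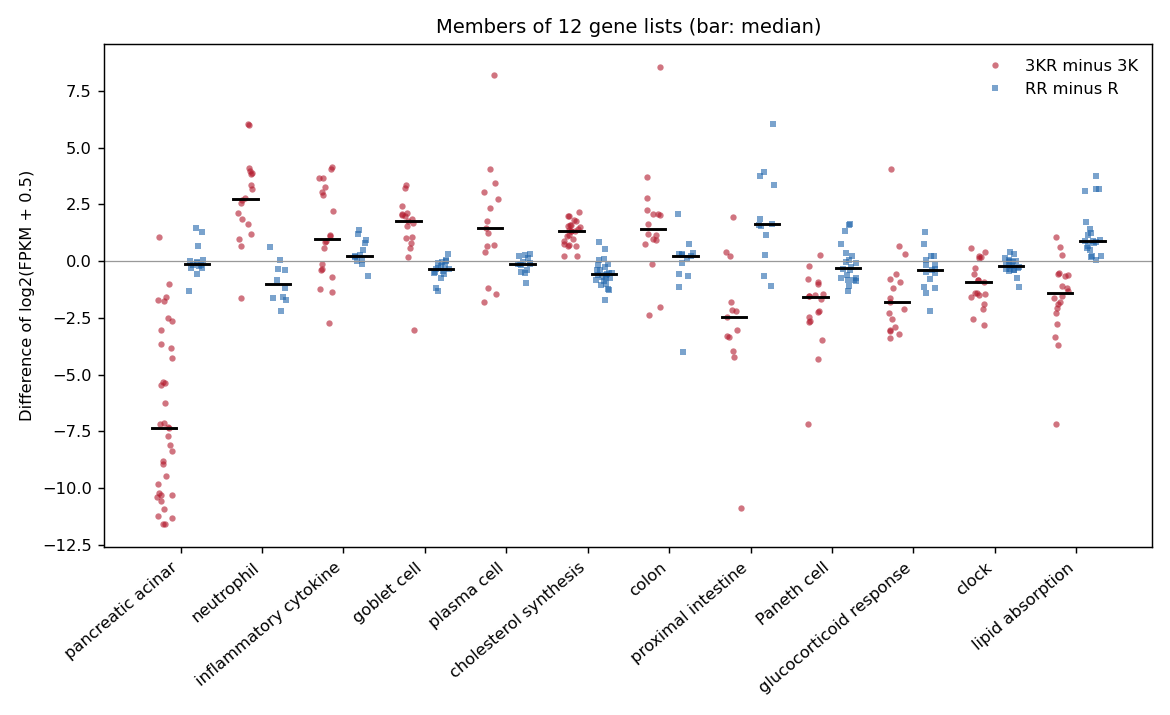
Each point is a member of 1 of 12 gene lists (horizontal axis), placed by its difference of log2(FPKM + 0.5) in 3KR minus 3K (circles) or RR minus R (squares); bars are medians. The medians of 3KR minus 3K run from -7.35 (pancreatic acinar) to 2.73 (neutrophil).

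Markers of the gut segments also separated the pair. Of 16 colon genes, 10 were at least 2-fold higher in 3KR and 2 lower, with a median of 1.40, while 10 of 13 genes of the proximal small intestine were lower and 1 higher, with a median of -2.46. In RR minus R the colon median was 0.21 and the proximal median 1.61, the opposite sign. Car1, a carbonic anhydrase of colonic epithelium (chromosome 3, 14766216 to 14808368), had 1151 FPKM in 3KR and 2.56 FPKM in 3K, was listed at 0 in RR and C, and had 0.679 FPKM in R. Aqp8, a water channel, had 14.8 FPKM in 3KR and 1.72 FPKM in 3K. Among Hox genes of the distal gut, Hoxb13 and Hoxd13 were below 0.5 FPKM in both libraries, Hoxa13 had 1.28 FPKM in 3KR and 0.546 FPKM in 3K, and Hoxd10 had 1.27 FPKM in 3KR and 0.276 FPKM in 3K. Fabp1, the fatty acid binding protein of proximal enterocytes, had 127.4 FPKM in 3KR and 1295 FPKM in 3K, against 1525 FPKM in RR and 113.5 FPKM in R. The hormone gene Cck had 3.00 FPKM in 3KR and 54.6 FPKM in 3K, and the duodenal transcription factor Pdx1 had 0.065 FPKM in 3KR and 4.15 FPKM in 3K. The segment sampled is not given. The parts of a different stretch of gut and of pancreatic RNA in these differences were not tested.

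Of 10 genes of the ileum list, 4 were higher in 3KR (Fabp6, Slc10a2, Slc51a and Cubn) and 2 lower (Nr0b2 and Fgf15). Fabp6, the ileal bile acid binding protein (chromosome 11, 43596049 to 43601540), had 658.3 FPKM in 3KR and 88.6 FPKM in 3K, against 2.90 FPKM in RR and 1946 FPKM in R, and 3486 FPKM in C. Slc10a2, which takes bile acids up from the lumen, had 116.4 FPKM in 3KR and 3.37 FPKM in 3K, against 1.58 FPKM in RR and 50.9 FPKM in R. Both genes thus moved in opposite directions in the 2 pairs. Cubn, a receptor for vitamin B12 bound to intrinsic factor, had 104.3 FPKM in 3KR and 3.99 FPKM in 3K, against 181.6 FPKM in RR and 283.1 FPKM in R. Fgf15, the hormone by which the ileum restrains bile acid synthesis, had 0.796 FPKM in 3KR and 5.78 FPKM in 3K, so it did not follow the transporters.

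**Figure D4:**
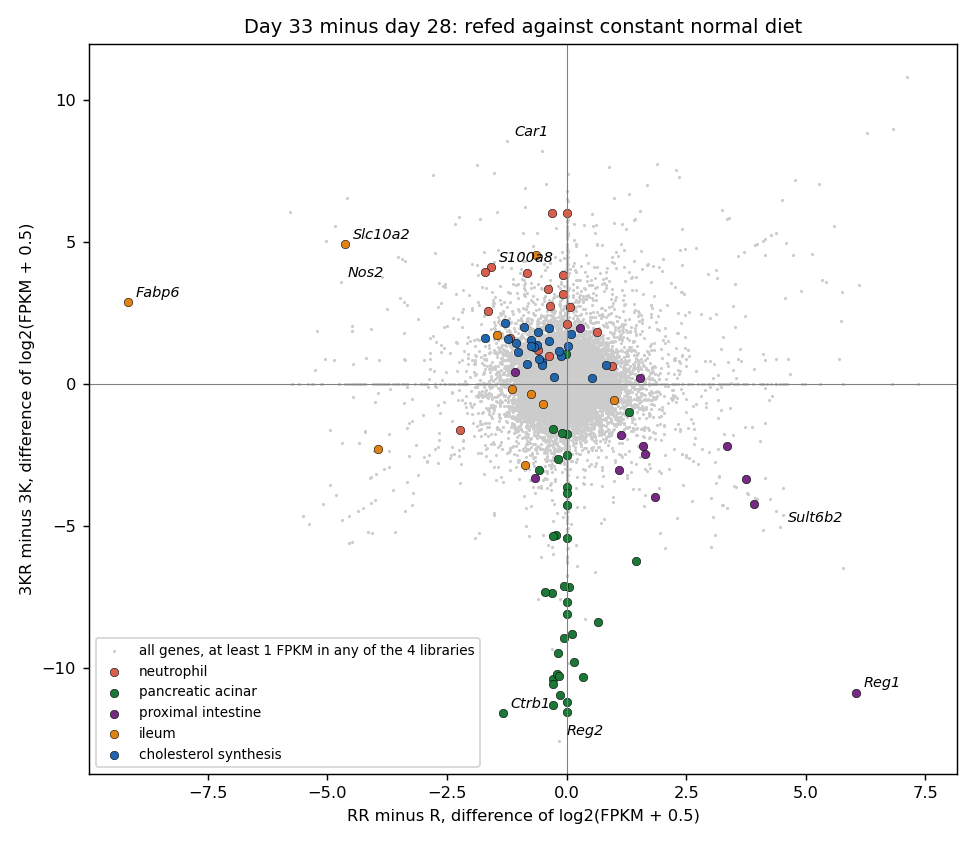
Each grey point is a gene, placed by RR minus R (horizontal axis) and 3KR minus 3K (vertical axis), both differences of log2(FPKM + 0.5); coloured points are members of 5 lists. Across 16882 genes the 2 differences had Pearson's r of 0.05, and acinar genes lie along the lower vertical axis.

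The 2 day changes were almost uncorrelated across genes. Of the 2520 genes higher in 3KR, 198 (7.86%) were also at least 2-fold higher in RR than in R, and 217 (8.61%) were at least 2-fold lower. The 198 are 20.3% of the 975 higher in RR. Of the 2218 lower in 3KR, 167 (7.53%, and 17.5% of the 953 lower in RR) were lower in both and 191 (8.61%) were in opposite directions. Over all genes, 5.42% were higher and 5.29% lower in RR than in R, and 13.3% were higher and 11.7% lower in 3KR than in 3K. The shared and the opposite shares thus both lay above those over all genes. Across 16882 genes the differences had r = 0.05, in libraries that share no sample, and genes are not independent replicates. Against 2KR minus 2K, the same step after the diet short of tryptophan and niacin, r was 0.48 over 17146 genes. It was 0.43 without the 108 genes of pancreas, stomach, liver and fat. In both pairs 875 genes were higher (34.7% of those in 3KR, 35.2% of those in 2KR) and 1069 lower (48.2% and 30.6%). Both 3K and 2K held pancreatic RNA, and its part in these values was not tested. In 2KR against 2K, 13.5% of genes were higher and 19.0% lower. Against 1KR minus 1K, after the methionine-deficient diet, r was 0.11 over 16512 genes, and in that pair 6.57% of genes were higher and 7.79% lower. 3KR was 2-fold apart from R in 2982 of 18602 genes and from C in 3027 of 18615. These were fewer than from 3K, with 4738 of 18879. They were also fewer than from the libraries of its own day, RR (3858 of 18263), 2KR (3697 of 18030) and 1KR (4387 of 18131).

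Secretory and crypt cells of the epithelium differed by type. Of 17 genes of goblet cells, which secrete the mucus layer, 13 passed 2-fold upward and 1 downward, with a median of 1.75, against -0.33 in RR minus R. Muc2, the gel-forming mucin (chromosome 7, 141690340 to 141754693), had 13510 FPKM in 3KR and 1457 FPKM in 3K, against 3452 FPKM in RR and 7863 FPKM in R. Atoh1, which commits progenitors to secretory fates, had 15.2 FPKM in 3KR and 1.03 FPKM in 3K, and Agr2, a disulfide isomerase needed for mucin, had 376.0 FPKM in 3KR and 69.7 FPKM in 3K. The member that was lower was Klk1, a kallikrein also on the acinar list. The Paneth list, for cells that secrete antimicrobial peptides at the base of small intestinal crypts, held 18 measured genes, of which 14 were lower by at least 2-fold and none higher, with a median of -1.60. Lyz1, their lysozyme, had 193 FPKM in 3KR and 553.8 FPKM in 3K, against 2048 FPKM in RR and 2149 FPKM in R. The defensin Defa24 had 434.2 FPKM in 3KR and 1261 FPKM in 3K, against 3002 FPKM in RR and 2596 FPKM in R, so both genes were lowest in 3KR of these 4 libraries. The list includes Clps, Nupr1 and Gip, which other lists hold as well, and defensin copies are alike enough to share reads.

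Of 15 stem cell genes, 9 were higher by 2-fold or more and 1 lower, with a median of 1.36, against -0.30 in RR minus R. Olfm4, a crypt base glycoprotein, had 35.5 FPKM in 3KR and 0.916 FPKM in 3K, against 200.0 FPKM in RR and 213.7 FPKM in R. Axin2, a target of Wnt signalling, had 21.4 FPKM in 3KR and 3.38 FPKM in 3K, and Lgr5, the receptor that marks these cells, had 2.47 FPKM in 3KR and 0.492 FPKM in 3K, against 4.15 FPKM in RR and 6.28 FPKM in R. The 3KR values lay between those of 3K and R for all 3 genes. Of 40 cell cycle genes, 34 were higher in 3KR and 7 of them by at least 2-fold. Those 7 are 17.5% of the list, and no member was 2-fold lower. Over all genes 13.3% were at least 2-fold higher and 25.1% were 2-fold apart either way. Among the 7 was the spindle gene Tpx2, with 13.2 FPKM in 3KR and 3.85 FPKM in 3K. Of 18 genes of regenerating epithelium, 2 were higher (S100a6 and Il1rn) and 6 lower, with Clu, a secreted chaperone, at 50.6 FPKM in 3KR and 231.5 FPKM in 3K.

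**Figure D5:**
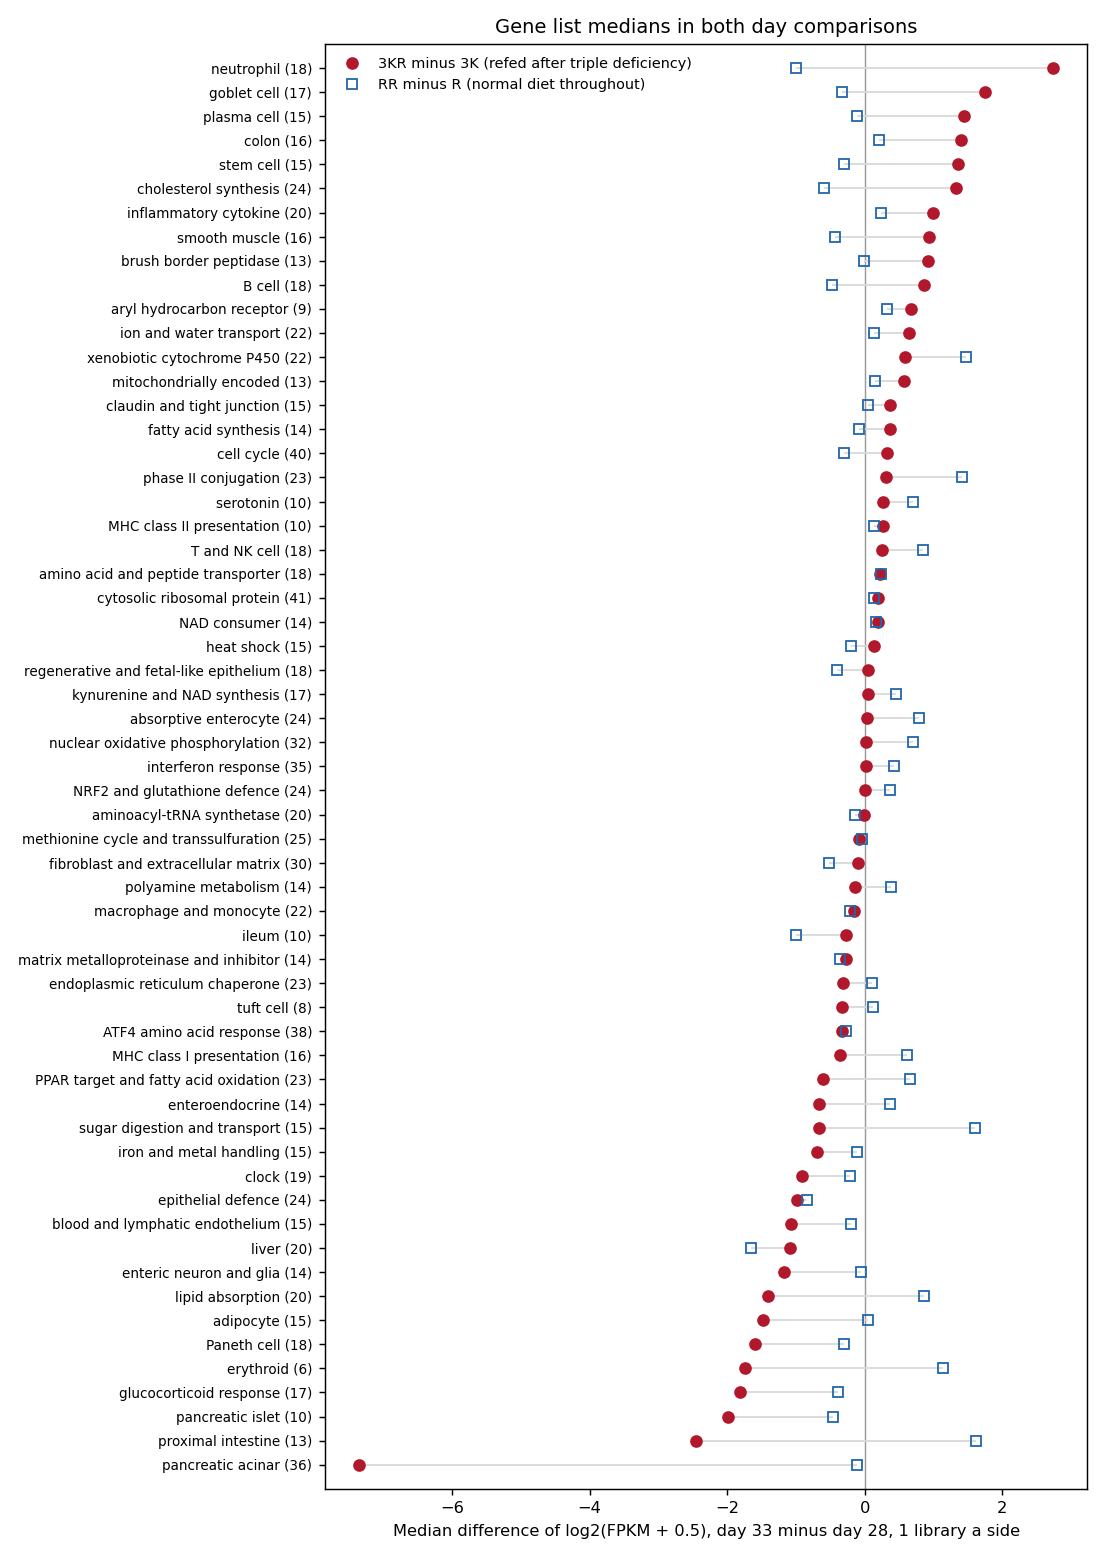
Median difference of log2(FPKM + 0.5) (horizontal axis) of each list with at least 4 measured members (rows, number of members in brackets) in 3KR minus 3K (filled circles) and RR minus R (open squares). The numbers in brackets are those of 3KR minus 3K. The proximal intestine is at -2.46 in 3KR minus 3K and at 1.61 in RR minus R, and cholesterol synthesis at 1.32 and -0.59.

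Cholesterol synthesis was higher throughout its pathway. All 24 measured genes were higher in 3KR than in 3K, 16 of them by at least 2-fold and none lower, with a median of 1.32, whereas the median was -0.59 in RR minus R. Hmgcs1, an early synthase of the pathway, had 108.7 FPKM in 3KR and 26.8 FPKM in 3K, against 33.9 FPKM in RR and 63.2 FPKM in R. Idi1, the isomerase that provides the isoprenoid units, had 21.9 FPKM in 3KR and 4.53 FPKM in 3K. Sqle, which commits squalene to sterols, had 41.3 FPKM in 3KR and 13.4 FPKM in 3K. Fatty acid synthesis was divided, since Fasn had 42.7 FPKM in 3KR and 19.1 FPKM in 3K while Srebf1, the factor that drives it, had 59.9 FPKM in 3KR and 209.5 FPKM in 3K.

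Genes of fat absorption went the other way. Of 20 measured, 13 were at least 2-fold lower in 3KR and 1 higher, with a median of -1.41, against 0.86 in RR minus R. Apoa4, an apolipoprotein of chylomicrons, had 1280 FPKM in 3KR and 6306 FPKM in 3K, against 4439 FPKM in RR and 498.0 FPKM in R. Mttp, which loads lipid onto apolipoprotein B, had 134.2 FPKM in 3KR and 565.1 FPKM in 3K, and the fatty acid transporter Cd36 had 13.8 FPKM in 3KR and 186.8 FPKM in 3K. Npc1l1, the cholesterol importer targeted by ezetimibe, was the member that was higher, with 112.3 FPKM in 3KR and 53.6 FPKM in 3K. For sugars, Slc2a2, the basolateral glucose transporter, had 12.5 FPKM in 3KR and 30.3 FPKM in 3K, and 5 of 15 genes were lower and none higher by 2-fold. Peptidases of the brush border were at least 2-fold higher in 4 of 13, with Mep1a at 206.1 FPKM in 3KR and 33.3 FPKM in 3K and Naaladl1 at 520.4 FPKM in 3KR and 98.4 FPKM in 3K. Tmprss15, the duodenal enteropeptidase that activates trypsin, had 0.016 FPKM in 3KR and 12.7 FPKM in 3K.

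Genes that respond to amino acid shortage were lower in part. Of 38 measured ATF4 genes, 14 were at least 2-fold lower in 3KR and 3 higher, with a median of -0.33, against -0.28 in RR minus R. In 1KR minus 1K, 2 of 35 were lower and none higher, with a median of 0.14. The list summed to 1705.5 FPKM in 3K and 2097.4 FPKM in 2K, the other library with pancreatic RNA, and to 1069.1 FPKM in 1K. The part of pancreatic RNA in these values was not tested. Asns, which makes asparagine, had 22.2 FPKM in 3KR and 62.8 FPKM in 3K, against 20.3 FPKM in RR and 26.1 FPKM in R. Chac1, a glutathione-degrading enzyme, had 1.16 FPKM in 3KR and 4.08 FPKM in 3K, and Slc7a5, an importer of large neutral amino acids such as methionine and tryptophan, had 5.38 FPKM in 3KR and 23.6 FPKM in 3K, against 1.99 FPKM in RR and 3.78 FPKM in R. Asns in 3KR thus lay between RR and R, while Slc7a5 lay above both. Nupr1, a stress gene also abundant in pancreas, had 45.3 FPKM in 3KR and 502.8 FPKM in 3K. Slc7a11, the cystine importer, was among those that were higher, with 14.2 FPKM in 3KR and 5.47 FPKM in 3K. Of 20 aminoacyl-tRNA synthetases, which load tRNAs, 1 was higher and 1 lower by 2-fold, or 10% apart, against 25.1% of all genes. Slc6a14, an importer of neutral and basic amino acids, had 50.6 FPKM in 3KR and 3.93 FPKM in 3K, against 0.06 FPKM in RR and 0.352 FPKM in R.

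Of 25 genes of the methionine cycle and transsulfuration, 4 were at least 2-fold lower and 2 higher, with a median of -0.08 as deposited and 0.14 after scaling to the protein-coding sum. That is 24.0% of its members 2-fold apart, near the 25.1% of all genes. Mat2a, which makes S-adenosylmethionine outside the liver, had 53.4 FPKM in 3KR and 25.2 FPKM in 3K, against 42.7 FPKM in RR and 47.4 FPKM in R. Cth, which makes cysteine from cystathionine, had 16.8 FPKM in 3KR and 6.82 FPKM in 3K. Gnmt, which consumes S-adenosylmethionine and is abundant in liver and pancreas, had 1.30 FPKM in 3KR and 20.7 FPKM in 3K, and Mat1a, the liver form of the synthetase, had 1.51 FPKM in 3KR and 13.7 FPKM in 3K. Among 17 kynurenine and NAD genes, 4 were higher and 1 lower, or 29.4% apart, and of 10 serotonin genes 4 were higher and 1 lower. Nampt, which recycles nicotinamide into NAD, had 59.5 FPKM in 3KR and 22.3 FPKM in 3K, and Ido1, which opens the kynurenine route in the gut, had 2.07 FPKM in 3KR and 0.733 FPKM in 3K, against 10.5 FPKM in RR and 5.21 FPKM in R. Maoa, which degrades serotonin, had 112.2 FPKM in 3KR and 14.97 FPKM in 3K, and the serotonin receptor Htr3a had 0.68 FPKM in 3KR and 5.59 FPKM in 3K.

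Genes induced by glucocorticoids and metals were lower, 11 of 17 by at least 2-fold with 1 higher and a median of -1.81, against -0.38 in RR minus R. Mt2, a metallothionein that binds zinc (chromosome 8, 94172664 to 94173568), had 151.4 FPKM in 3KR and 1583 FPKM in 3K, against 11.5 FPKM in RR and 20.0 FPKM in R. Zbtb16 and Klf9, transcription factors induced by glucocorticoids, had 4.47 and 13.8 FPKM in 3KR and 39.8 and 68.9 FPKM in 3K. Pdk4, which spares glucose in fasting, had 17.5 FPKM in 3KR and 164.9 FPKM in 3K, against 42.1 FPKM in RR and 17.2 FPKM in R. The gene that was higher was Hsd11b2, which inactivates glucocorticoids, with 55.5 FPKM in 3KR and 2.82 FPKM in 3K, against 2.49 FPKM in RR and 6.20 FPKM in R. Of 19 clock genes, 9 were lower and none higher by 2-fold. Nr1d1, a repressor of the clock loop, had 18.1 FPKM in 3KR and 109.8 FPKM in 3K, against 88.6 FPKM in RR and 90.5 FPKM in R and 14.9 FPKM in C. Dbp, an output gene of the clock, had 11.3 FPKM in 3KR and 31.2 FPKM in 3K, with 61.1 FPKM in RR and 46.9 FPKM in R and 1.81 FPKM in C. The labels do not give the hour at which tissue was taken.

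Antimicrobial genes of the epithelium were at least 2-fold lower in 12 of 24 and higher in 5. Reg3b and Reg3g, lectins that kill bacteria, had 4343 and 1384 FPKM in 3KR and 28692 and 8376 FPKM in 3K, and both were also lower in RR than in R, with 805.5 and 549.1 FPKM in RR and 6070 and 2970 FPKM in R. Reg3 genes are made by acinar cells too. Retnlb, a goblet cell protein of the colon, had 114.7 FPKM in 3KR and 9.08 FPKM in 3K and was listed at 0 in RR, R and C. Nos2, the inducible nitric oxide synthase (chromosome 11, 78920787 to 78960254), had 26.0 FPKM in 3KR and 1.72 FPKM in 3K, against 3.13 FPKM in RR and 95.2 FPKM in R. Saa1, an acute-phase protein, had 424.3 FPKM in 3KR and 101.9 FPKM in 3K, against 0.552 FPKM in RR and 23.2 FPKM in R. Among xenobiotic enzymes Cyp2c55, a cytochrome P450 (chromosome 19, 39007019 to 39042693), had 79.7 FPKM in 3KR and 0.649 FPKM in 3K, and it was also higher in RR, at 31.7 FPKM, than in R, at 2.89 FPKM.

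Cells of the wall were divided. Smooth muscle genes were at least 2-fold higher in 6 of 16 and lower in none, with the contractile actin Actg2 at 469.1 FPKM in 3KR and 117.8 FPKM in 3K. Enteric neuron and glia genes were lower in 11 of 14 and endothelial genes in 10 of 15, and their medians of -1.17 and -1.08 became -0.87 and -0.85 after scaling to the protein-coding sum. Ret, a receptor of enteric neurons, had 2.05 FPKM in 3KR and 15.8 FPKM in 3K, against 1.75 FPKM in RR and 1.96 FPKM in R, and Pecam1, a junction protein of endothelium, had 12.8 FPKM in 3KR and 33.0 FPKM in 3K, against 10.7 FPKM in RR and 13.2 FPKM in R. In both genes 3KR was near the normal-diet libraries and 3K above them. Fat cell genes were lower in 11 of 15. The hormone gene Adipoq had 3.34 FPKM in 3KR and 20.9 FPKM in 3K, against 17.1 FPKM in RR and 20.7 FPKM in R. For Adipoq 3KR was thus below the normal-diet libraries and 3K near them. Of 6 red cell genes 5 were lower, and Alas2, which starts heme synthesis in these cells, had 4.81 FPKM in 3KR and 33.2 FPKM in 3K, against 7.41 FPKM in RR and 5.40 FPKM in R. Collagen I (Col1a1) had 70.5 FPKM in 3KR and 19.7 FPKM in 3K. The fibroblast list as a whole had 3 of 30 higher and none lower, or 10% apart, against 25.1% of all genes. The 41 cytosolic ribosomal protein genes and the 32 nuclear genes of oxidative phosphorylation had no member 2-fold apart in 3KR against 3K.

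Of 18 T and NK cell genes, 5 were higher by 2-fold and none lower, with a median of 0.25, against 0.84 in RR minus R. Lck, a kinase of the T cell receptor, had 11.5 FPKM in 3KR and 3.82 FPKM in 3K, against 8.02 FPKM in RR and 3.99 FPKM in R. Of 16 genes of MHC class I presentation, 5 were lower and none higher, with the peptide transporter Tap1 at 5.04 FPKM in 3KR and 13.9 FPKM in 3K. The 10 MHC class II genes had no member 2-fold apart. Of 35 interferon genes 1 was higher and 4 were lower, with Bst2, which tethers viruses to the cell, at 3.90 FPKM in 3KR and 15.02 FPKM in 3K. Among 23 chaperone genes of the endoplasmic reticulum, 4 were lower and 1 higher. The shares 2-fold apart were 27.8% (T and NK cell), 31.2% (MHC class I), 14.3% (interferon) and 21.7% (chaperone), against 25.1% of all genes. Herpud1, which helps to remove misfolded proteins, had 63.9 FPKM in 3KR and 273.2 FPKM in 3K, and Ern2, a stress sensor of goblet cells, had 14.0 FPKM in 3KR and 2.58 FPKM in 3K.

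Transport and hormone genes of the epithelium were divided. Of 22 genes of ion and water transport, 8 were higher and 4 lower by 2-fold, with a median of 0.64, against 0.14 in RR minus R. Car2, a carbonic anhydrase, had 84.1 FPKM in 3KR and 8.89 FPKM in 3K, against 8.39 FPKM in RR and 2.45 FPKM in R. Kcne3, a potassium channel subunit for chloride secretion, had 24.4 FPKM in 3KR and 2.63 FPKM in 3K, against 21.5 FPKM in RR and 22.9 FPKM in R. Slc9a3, the apical sodium and proton exchanger, had 72.0 FPKM in 3KR and 154.2 FPKM in 3K. Among 14 enteroendocrine genes, 6 were lower and 2 higher. Nts, the neurotensin gene of the distal small bowel, had 30.8 FPKM in 3KR and 2.00 FPKM in 3K, against 27.5 FPKM in RR and 35.4 FPKM in R, while Gip, a hormone of the proximal bowel, had 9.31 FPKM in 3KR and 53.4 FPKM in 3K, against 136.4 FPKM in RR and 43.7 FPKM in R. Of 20 genes abundant in liver, 12 were lower in 3KR than in 3K, and 13 were lower in RR than in R, such as the fibrinogen chain Fga with 4.79 FPKM in 3KR and 21.9 FPKM in 3K and with 0.188 FPKM in RR and 13.4 FPKM in R.

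Further genes with large differences that are in no list are given here, leaving out predicted genes and clone names such as 1810065E05Rik, which had 342.6 FPKM in 3KR and 1.56 FPKM in 3K. Lpo, a peroxidase of secretions, had 40.6 FPKM in 3KR and 0.402 FPKM in 3K, and Il1f9, the epithelial cytokine interleukin 36 gamma, had 22.9 FPKM in 3KR and 0.308 FPKM in 3K. Both were at most 0.244 FPKM in RR and R. Akr1c14, an aldo-keto reductase, had 32.1 FPKM in 3KR and 0.177 FPKM in 3K, against 44.4 FPKM in RR and 34.2 FPKM in R, so here 3K was the low library. Cstdc6, a relative of the stefins, had 21.4 FPKM in 3KR and was listed at 0 in 3K, RR, R and C. In the other direction Pdia2, a disulfide isomerase of pancreas, had 0.044 FPKM in 3KR and 53.3 FPKM in 3K, and Reg3d had 0.998 FPKM in 3KR and 289.6 FPKM in 3K. Erp27, Serpini2 and Aqp12, which pancreas also expresses, were listed at 0 in 3KR and had 25.1, 18.1 and 14.6 FPKM in 3K.

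The library method did not select polyadenylated RNA, so small RNAs are in the table. Of 622 such genes, 295 were at least 2-fold higher in 3KR and 206 lower, against 171 and 204 of 628 in RR against R. Over all genes 13.3% were higher and 11.7% lower in 3KR. The RR minus R medians were 0.22 for snoRNAs and scaRNAs, 0.02 for snRNAs and -0.59 for miRNA genes. In 3KR minus 3K the median was 1.81 for 253 snoRNAs and scaRNAs, 2.37 for 130 snRNAs and -2.72 for 89 miRNA genes. Of those miRNA genes, 46 were listed at 0 in 3KR and 21 in 3K. The depth of 3KR, 13.9 M fragments against 25.5 M in 3K, moved with these values, and its part was not tested. Gm24265, annotated as an snRNA, and Gm22988, annotated as a snoRNA, had the largest differences among the abundant ones, and their GENCODE M21 transcripts (GRCm38 chr5:115489459-115489599, plus strand, and chr11:69669635-69669778, minus strand) read as follows.
Gm24265: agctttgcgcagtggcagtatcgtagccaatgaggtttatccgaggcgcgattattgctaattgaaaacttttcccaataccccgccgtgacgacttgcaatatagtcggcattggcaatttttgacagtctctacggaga
Gm22988: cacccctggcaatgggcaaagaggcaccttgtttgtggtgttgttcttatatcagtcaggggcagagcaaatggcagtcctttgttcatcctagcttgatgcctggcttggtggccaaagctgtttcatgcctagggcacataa
Gm24265 had 68003 FPKM in 3KR and 1252 FPKM in 3K, against 9799 FPKM in RR and 3699 FPKM in R. Gm22988 had 46695 FPKM in 3KR and 3121 FPKM in 3K, against 6311 FPKM in RR and 6118 FPKM in R. Rn7sk, which restrains transcription elongation, had 94227 FPKM in 3KR and 35522 FPKM in 3K, and Rmrp, the RNA of RNase MRP, had 30911 FPKM in 3KR and 7064 FPKM in 3K. All 4 RNAs were higher in 3KR than in the other 8 libraries. One Rnu3a copy had 941.4 FPKM in 3KR and 0.024 FPKM in 3K while the other had 11.2 FPKM in 3KR and 73.1 FPKM in 3K. Their transcripts are identical at 213 of 214 bases, so how reads were split between them is uncertain.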

How the data were processed

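RNA of mouse intestinal tract was extracted with ISOGEN, depleted of ribosomal RNA and made into stranded libraries without mRNA selection, per the labels' protocols. The submitters' processing notes name HISAT2, Cuffdiff 2.2.1 and GRCm38. The deposited values are FPKM per gene, per the file headers, in 9 libraries, 1 per condition. The annotation behind it is not stated. GENCODE M21 gave types and positions for 55227 genes and lacked 241.

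Values were used as deposited, with a pseudocount of 0.5 FPKM, a floor of 1 FPKM in either library and a threshold of 2-fold (python 3.11.15, pandas 2.3.3). Counting of genes past 2-fold was tested on simulated data. No test was possible with 1 library a side. The table holds no counts, and depth was estimated from the spacing of low FPKM in genes with 1 transcript, so no counting interval is given. At that depth 1 FPKM of a 2 kb transcript is 27.8 fragments in 3KR and 51 in 3K.

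The comparison and the 60 gene lists (2 members unmatched) were chosen with earlier results of these data known. Named genes were, at 5 FPKM or more, the 12 with the largest difference each way, with and without neighbouring organs, the 10 each way of the difference between both pairs, up to 6 per list plus members of at least 100 FPKM, and 12 small RNAs. Named outside that rule, after their values were seen, were list members (among them Asns, Tnf, Cxcr2, Ngp, Klf9, Dbp, Sqle and 4 Hox genes), 1810065E05Rik, Stfa3, Cstdc5, Brdt, Kcnj10, Gm10800 and Gm10801. Alternatives were other pseudocounts, floors and scalings, and leaving out gene types. Some items are not reported here.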

Additional observations from a re-analysis of the deposited data

Results flagged for a closer look

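Of the results below, each moved at least 2-fold one way in 3KR minus 3K and at least 2-fold the other way in RR minus R, and the difference between the pairs was not tested, with 1 library a condition. All values are differences of log2(FPKM + 0.5). The median of the neutrophil list was 2.73 over 18 members in 3KR minus 3K and -1.01 over 10 members in RR minus R. That of the proximal intestine list was -2.46 and 1.61 (13 and 12 measured members). That of the erythroid list was -1.75 and 1.14 (6 and 5 measured members).

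Reg1, a secreted lectin of pancreas and proximal gut, was at -10.88 in 3KR minus 3K and at 6.05 in RR minus R. The bile acid transporter Slc10a2 was at 4.92 and -4.63, the nitric oxide synthase Nos2 at 3.58 and -4.72, Tmigd1, an adhesion protein of epithelium, at 3.77 and -3.86, and the sulfite oxidase Suox at 3.03 and -3.49. The intestinal phosphatase Akp3 was at -5.74 and 3.03, the defensin Defa38 at -5.32 and 3.11, and the sulfotransferase Sult6b2 at -5.05 and 4.47. Tmigd1 had 225.6 FPKM in 3KR and 16.1 FPKM in 3K, against 6.17 FPKM in RR and 96.5 FPKM in R.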

How the results depend on the processing

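No paired analysis was possible because each condition has 1 library. The counts of 2520 genes higher and 2218 lower in 3KR moved by over 1.5 times with a floor of 5 FPKM (1497 and 1252) and over protein-coding genes alone (1451 and 1363), where fewer genes enter by construction. They were 2979 and 2633 with a pseudocount of 0.1, 2018 and 1800 with 1, 2838 and 2520 with no floor, and 2661 and 2186 with median-of-ratios scaling. Scaling to the protein-coding sum gave 3576 and 1619, and to that sum without neighbouring organs 2784 and 2122. Leaving out small RNA and mitochondrial genes was chosen after seeing the data. Under the pseudocount, floor and scaling settings, none of 53 genes with the largest differences changed sign or left 2-fold. Most were picked for the size of those differences, so this outcome was close to fixed by the choice. No list past 2-fold reversed. Medians near 0 changed sign with the protein-coding sum in the fibroblast (0.14), macrophage (0.08), polyamine (0.11), methionine cycle (0.14) and aminoacyl-tRNA synthetase (0.23) lists, and the medians of the liver (-0.87), enteric neuron and glia (-0.87) and endothelium (-0.85) lists passed to under 2-fold there. With 1 library a condition, none could be left out within a pair. Depth in 3KR limits genes of few FPKM most.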

Other observations

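Repeat-like predicted genes were high in 3KR, RR and C and low elsewhere. Gm10800 had 1600 FPKM in 3KR and 2.66 FPKM in 3K, 310.4 FPKM in RR and 2.25 FPKM in R, and 3517 FPKM in C. Gm10801 had 436.2 FPKM in 3KR and 0.453 FPKM in 3K, 112.1 FPKM in RR and 0.942 FPKM in R, and 1023 FPKM in C. They were picked after their values were seen, and no explanation is given.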
